A study of Mus musculus with 4 samples.

Results

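TAM receptors, their ligands and other genes for the uptake of dying cells were examined in bone marrow monocytes of aged and young mice. The set was fixed by gene symbol and comprised 10 genes, all found among the 31017 symbols of each count table: the receptor tyrosine kinase genes Axl, Mertk and Tyro3, the bridging ligand genes Gas6, Pros1 and Mfge8, and Lrp1, Stab1, Sirpa and Cd47. The 4 RNA-seq libraries came from FACS-isolated monocytes, 2 of them from 18-month-old (aged) and 2 from 3-month-old (young) animals, all C57BL/6 and wild type. All libraries carry atherosclerosis as the disease label, and the series title places them in a study of marrow age and smooth muscle-derived cells of the plaque. The labels give neither the sorting gate nor whether the 2 libraries of an age came from separate or pooled animals, so the p-values reflect only how far libraries of an age differ, a spread that can be technical.

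Cells that die by apoptosis expose phosphatidylserine, and phagocytes take them up by efferocytosis. The TAM receptors (Tyro3, Axl, Mertk) do not touch this lipid themselves. Gas6 and protein S (Pros1) bind it through vitamin K-dependent Gla domains and bridge it to the receptors, whose signalling also restrains inflammatory cytokine responses. Mfge8 bridges the same lipid to integrins, while Lrp1 and stabilin-1 are large scavenger receptors. Cd47 on a target cell gives the opposite message: it engages Sirpa on the phagocyte, which recruits tyrosine phosphatases and holds back engulfment. In atherosclerotic plaques, defective efferocytosis is known for its part in the growth of the necrotic core.

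Of the 10 genes, 9 passed the filter on low counts and were tested, and Axl and Sirpa were higher in aged monocytes at an adjusted p below 0.05. That is 2 of 9 tested, where 5.77% of all 12035 genes tested passed in either direction, 2.87% as higher and 2.89% as lower in aged. None of the 9 was lower at that threshold with edgeR, DESeq2 or limma-voom, and none was lower at an unadjusted p below 0.05 either. An unadjusted p below 0.05 was reached by 5 of the 9, all higher, against 21.1% of all genes in either direction. The CPM ranges (CPM are counts normalised to the TMM-scaled library size) of the 2 ages did not overlap in 7 of the 9, all with aged higher. Over all genes tested, the ranges did not overlap in 51.6%, with aged higher in 25.9% and lower in 25.7%. The median log2 change, aged minus young, was 0.22 over the 9 tested genes and -0.0044 over all genes tested. The filter left out Tyro3, so these counts do not cover it.

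The libraries held 24918091 and 21837261 counts in aged replicates 1 and 2, and 34278754 and 20159129 counts in young replicates 1 and 2. The 10 genes took 0.251% and 0.255% of the counts in the aged libraries, and 0.220% and 0.219% in the young ones. Monocyte identity genes were abundant throughout, with 1767 and 1710 CPM of Csf1r in the aged, against 1392 and 1383 CPM in the young libraries. Csf1r itself passed as higher in aged (log2 change 0.33 ± 0.049, SE, edgeR adjusted p = 0.00429). Markers of other cell types were also present, and their part in the changes below was not tested. Over all genes tested, 2.87% passed as higher and 2.89% as lower. Non-classical monocyte genes passed as higher in 11 of 18 cases and lower in 1, with summed levels of 2234 to 2401 CPM in aged and 1815 to 1923 CPM in young libraries. This list shares 5 genes with the uptake pathway lists described further on, and 3 of its 11 higher genes (Cd36, Nr4a1 and Pparg) are counted in both. Classical monocyte genes were lower in 6 of 14 cases and higher in 2, with sums of 19140 to 19141 CPM in aged against 22457 to 22722 CPM in young libraries. In bulk RNA, a different share of cells of a type and a different amount of RNA per cell cannot be told apart.

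Sequence is given for the 3 genes that let the receptors and their ligand be compared: Axl, which passed under all 17 alternative settings, its relative Mertk, and their shared ligand Gas6. The stretches are the 250 bases upstream of the RefSeq start, on GRCm38.p6, read 5′ to 3′ on the gene's strand. All 3 end upstream of the gene starts in GENCODE M21, which are 25788705 for Axl, 128698956 for Mertk and 13494490 for Gas6. The end of the RefSeq entry was found in a GENCODE transcript for Axl, but not for Mertk or Gas6. Capitals mark matches, on either strand, to the GC box GGGCGG.
Axl (chr7:25788734-25788983, minus strand): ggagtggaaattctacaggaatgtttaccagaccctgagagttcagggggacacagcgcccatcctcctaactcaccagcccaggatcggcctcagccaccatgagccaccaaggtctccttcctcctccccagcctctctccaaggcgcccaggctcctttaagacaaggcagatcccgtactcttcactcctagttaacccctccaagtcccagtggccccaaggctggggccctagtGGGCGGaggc
Mertk (chr2:128698665-128698914, plus strand): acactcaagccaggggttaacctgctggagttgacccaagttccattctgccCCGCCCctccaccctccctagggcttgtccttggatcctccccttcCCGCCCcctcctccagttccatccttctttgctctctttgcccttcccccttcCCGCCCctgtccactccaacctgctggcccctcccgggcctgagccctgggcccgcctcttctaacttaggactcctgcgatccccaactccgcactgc
Gas6 (chr8:13494536-13494785, minus strand): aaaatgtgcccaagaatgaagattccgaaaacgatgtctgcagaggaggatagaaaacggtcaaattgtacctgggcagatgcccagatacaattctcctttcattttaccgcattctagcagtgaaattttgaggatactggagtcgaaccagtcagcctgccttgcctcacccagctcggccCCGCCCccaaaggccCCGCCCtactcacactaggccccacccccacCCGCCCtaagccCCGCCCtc
The Axl window held 1 GC box, the Mertk window 3 and the Gas6 window 4. RefSeq windows were matched for 9 of the 10 genes, all but Sirpa, and 8 of these 9 held a GC box, as did 32.9% of the windows of 27025 genes. The 9 windows were rich in G and C, at 54.8% to 73.2%, against a median of 52.0% over all windows. A CCAAT box (CCAAT) was found in 1 of the 9, that of Stab1, and in 34.5% of all windows. No match was found in the 9 windows to an AP-1 site (TGACTCA, in 4.4% of all windows), an NR4A site (AAAGGTCA, 1.3%) or a TATA box (TATAAA, 13%). These matches describe the letters in the windows and do not show binding.

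Levels per kb of exon set the inhibitory pair Sirpa and Cd47 far above the TAM receptors. In aged libraries Sirpa led with 240 CPM per kb, followed by Cd47 with 112, Lrp1 with 24, Pros1 with 22.0, Axl with 15.6 and Mfge8 with 8.42 CPM per kb. Mertk followed far below with 0.630, then Stab1 with 0.436, Gas6 with 0.342 and Tyro3 with 0.0161 CPM per kb. In young libraries the first 6 genes kept that order, at 206, 102, 20.9, 19.7, 10.4 and 7.08 CPM per kb, and Stab1 (0.477) stood before Mertk (0.427), Gas6 (0.182) and Tyro3 (0). Neighbours whose library values overlapped were Lrp1 and Pros1 as well as Stab1 and Gas6 in aged, and Stab1 and Mertk in young libraries. Among the genes tested, Sirpa stood at percentile 98.3 of the level per kb, Cd47 at 96.3, Axl at 70.4 and Mertk at 13.1.

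**Figure D1:**
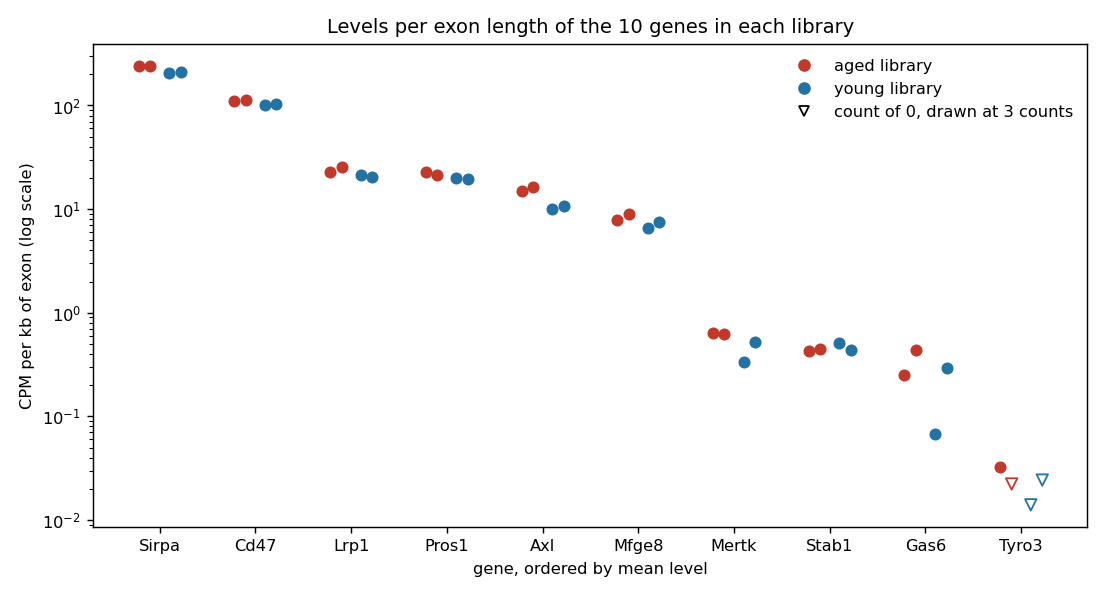
Level of each of the 10 genes in CPM per kb of exon (log axis) in the 2 aged (red) and 2 young (blue) libraries, with counts of 0 drawn as open triangles at the level of 3 counts. Sirpa and Cd47 stand highest, Axl lies 20.6 to 30.2 times above Mertk within a library, and Tyro3 sits at the detection limit.

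Axl, the TAM receptor linked to innate immune cells under inflammatory conditions, made up nearly all TAM receptor transcripts and rose in aged monocytes. Axl (ENSMUSG00000002602.16, chromosome 7, 25757273 to 25788705) had 75.6 and 81.5 CPM in the aged libraries, against 50.7 and 54.1 CPM in the young ones. Both aged libraries lay above both young ones. The rise was 1.5-fold, a log2 change of 0.59 ± 0.082 (SE, n = 2 per group) with a 95% interval of 0.40 to 0.77 (edgeR adjusted p = 0.00264). With each library left out in turn, Axl passed every time, with log2 changes of 0.53 to 0.64 and adjusted p values of 6.31e-05 to 0.0364. Per kb, Axl gave 95.8% and 96.3% of the summed level of the 3 receptors in aged libraries, and 96.8% and 95.4% in young ones.

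Mertk, the receptor that macrophages use most for efferocytosis, was scarce. Mertk (ENSMUSG00000014361.5, chromosome 2, 128698956 to 128802894) had 69 and 59 counts in the aged libraries, against 50 and 45 counts in the young ones. These were 2.75 and 2.71 CPM in aged and 1.45 and 2.26 CPM in young libraries, which did not overlap. The log2 change of 0.59 ± 0.33 (SE, n = 2 per group) did not pass (edgeR adjusted p = 0.337). Its 95% interval of -0.14 to 1.33 contains the Axl value, and a difference between the changes of Axl and Mertk was not tested. The Mertk value was 0.28 without young replicate 1 and 0.91 without young replicate 2, and it passed in neither.

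Tyro3, the TAM receptor best known from the nervous system, was at the limit of detection. Tyro3 (ENSMUSG00000027298.17, chromosome 2, 119797733 to 119818104) had 5 and 0 counts in the aged libraries, against 0 and 0 in the young ones. A count of 0 allows up to 3 counts, which is 0.138 CPM in aged replicate 2, and 0.0868 and 0.150 CPM in young replicates 1 and 2. The 5 counts of aged replicate 1 correspond to 0.199 CPM, and no fold was computed.

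**Figure D2:**
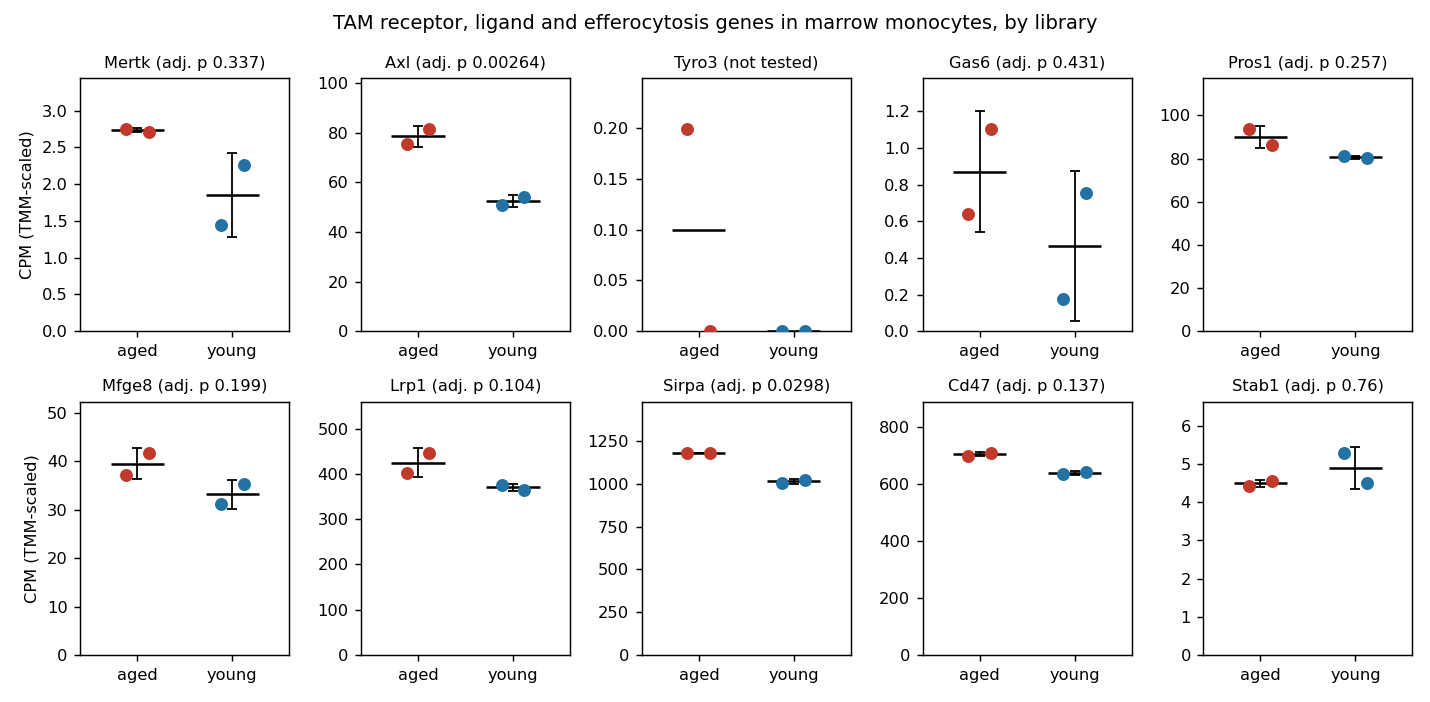
CPM of each gene in the 2 aged (red, left) and 2 young (blue, right) libraries on linear axes from 0, with the mean as a line, bars of 1 SD for tested genes, and the edgeR adjusted p in the panel title. Axl averages 78.5 CPM in aged and 52.4 CPM in young libraries, and the groups of Gas6, Stab1 and Tyro3 overlap.

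Among the ligands, protein S transcripts were far more abundant than those of Gas6, and neither passed the test. Pros1 (ENSMUSG00000022912.8, chromosome 16, 62854307 to 62929346), which activates Tyro3 and Mertk and also serves as an anticoagulant, had 93.7 and 86.3 CPM in the aged libraries, against 81.1 and 80.2 CPM in the young ones. The groups did not overlap, but the log2 change was only 0.16 ± 0.075 (SE, n = 2 per group; edgeR adjusted p = 0.257). Gas6 (ENSMUSG00000031451.6, chromosome 8, 13465374 to 13494490), the ligand that activates all 3 receptors and the one that Axl uses, had 16 and 24 counts in the aged libraries, against 6 and 15 counts in the young ones.

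These Gas6 counts correspond to 0.638 and 1.10 CPM in aged and 0.174 and 0.752 CPM in young libraries, so that the groups overlapped. The log2 change of 1.04 ± 0.70 (SE, n = 2 per group) did not pass (edgeR adjusted p = 0.431), and its 95% interval ran from -0.50 to 2.59. It was 0.20 without young replicate 1 and 2.29 without young replicate 2. No change was detected at these counts. The level of Pros1 per kb was 91.6 and 48.7 times that of Gas6 in the aged libraries, and 291 and 66.4 times in the young ones.

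Mfge8 (ENSMUSG00000030605.15, chromosome 7, 79133768 to 79149060), the milk fat globule protein that links phosphatidylserine to alpha-v integrins, had 37.2 and 41.8 CPM in the aged libraries, against 31.1 and 35.4 CPM in the young ones. All aged values lay above the young ones, by a narrow margin. The log2 change of 0.25 ± 0.11 (SE, n = 2 per group) had an unadjusted p of 0.0359 and did not pass (edgeR adjusted p = 0.199).

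Gas6 and protein S work only after vitamin K-dependent carboxylation, and none of the 7 tested genes of that step passed (edgeR, DESeq2, limma-voom), nor at an unadjusted p below 0.05. The lowest p among these was that of Vkorc1l1, a vitamin K reductase, with 26.6 and 30.0 CPM in the aged, against 33.8 and 30.3 CPM in the young libraries (log2 change -0.18 ± 0.11, SE). The list's median was -0.10.

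Lrp1 and Stab1 encode the scavenger receptors of the set. Lrp1 (ENSMUSG00000040249.15, chromosome 10, 127538161 to 127621148), an endocytic receptor for many ligands that can also recognise calreticulin on dying cells, had 402 and 447 CPM in the aged libraries, against 376 and 365 CPM in the young ones. The groups did not overlap. The log2 change of 0.20 ± 0.063 (SE, n = 2 per group) did not pass (edgeR adjusted p = 0.104), and without aged replicate 2 it was 0.12 (edgeR adjusted p = 0.375). Without young replicates 1 and 2 it did not pass either (edgeR adjusted p = 0.302 and 0.309). It passed at 0.27 without aged replicate 1 (edgeR adjusted p = 0.00899) and at 0.30 with offsets for gene length and GC content (edgeR adjusted p = 0.0139). Its exons sum to 17717 bases, the longest of the 10 genes.

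Stab1 (ENSMUSG00000042286.13, chromosome 14, 31139013 to 31168641) encodes stabilin-1, a receptor of macrophages and sinusoidal endothelium that binds phosphatidylserine. It had 111 and 99 counts in the aged libraries, against 183 and 90 counts in the young ones, or 4.42 and 4.55 CPM against 5.29 and 4.51 CPM. The groups overlapped, and the log2 change was -0.14 ± 0.21 (SE, n = 2 per group; edgeR adjusted p = 0.76), the only negative value among the 9. It was -0.0069 without young replicate 1 and -0.24 without young replicate 2. The exons of Stab1 overlap those of Nt5dc2 on the opposite strand by 112 bases, and Nt5dc2 had 1183 to 1777 counts per library. The strand setting of the counting is not given in the sources used here. Whether the overlap adds reads to the low Stab1 counts or takes some away is therefore not known.

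Sirpa, the inhibitory receptor, was the most abundant gene of the set and rose slightly. Sirpa (ENSMUSG00000037902.18, chromosome 2, 129592835 to 129632228) had 1179 and 1182 CPM in the aged libraries, against 1002 and 1025 CPM in the young ones. The aged values were nearly identical and lay above both young ones. The rise was 1.16-fold, a log2 change of 0.22 ± 0.050 (SE, n = 2 per group; 95% interval 0.11 to 0.33; edgeR adjusted p = 0.0298). It did not pass without aged replicate 2, young replicate 1 or young replicate 2 (edgeR adjusted p = 0.0617, 0.204 and 0.0675) or with offsets for gene length and GC content (edgeR adjusted p = 0.0556), while the log2 change stayed between 0.18 and 0.23.

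Cd47 (ENSMUSG00000055447.19, chromosome 16, 49800533 to 49915010), the ligand of Sirpa, had 699 and 709 CPM in the aged libraries, against 633 and 642 CPM in the young ones. The groups did not overlap. The log2 change of 0.14 ± 0.051 (SE, n = 2 per group) did not pass (edgeR adjusted p = 0.137), and its 95% interval of 0.030 to 0.26 overlaps that of Sirpa. Per kb, Sirpa stood 2.16 and 2.13 times above Cd47 in the aged libraries, and 2.02 and 2.04 times in the young ones.

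**Figure D3:**
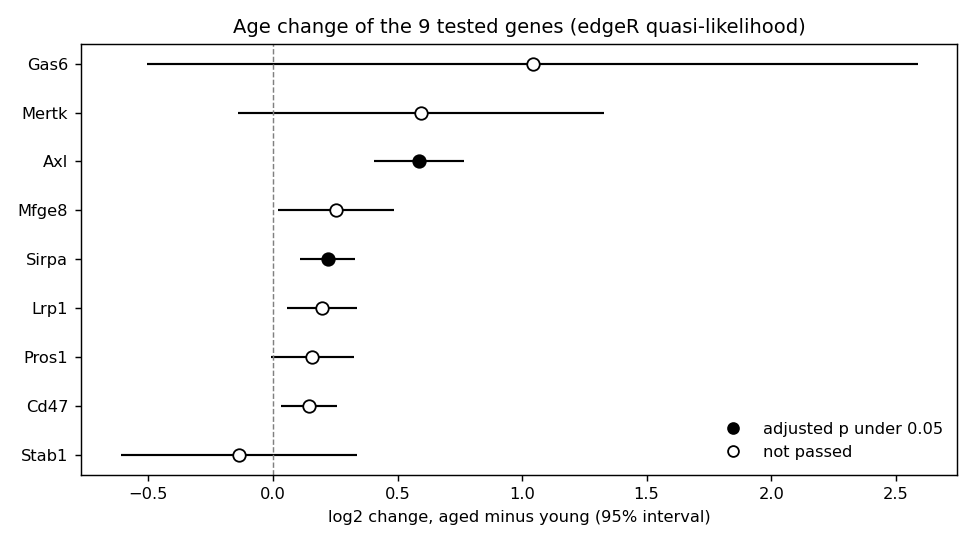
Log2 change, aged minus young, of the 9 tested genes with 95% intervals from the edgeR fit; filled points passed at an adjusted p below 0.05. Axl (0.59) and Sirpa (0.22) are filled, 8 of the 9 points lie above 0, and the intervals of Gas6 and Mertk are the widest.

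The Sirpb1 genes encode SIRP-beta proteins, relatives of Sirpa that lack its inhibitory tail, and of the 3 measured Sirpb1a and Sirpb1c rose. The difference of their changes from that of Sirpa was not tested. Sirpb1c had 141 and 150 CPM in the aged, against 83.5 and 84.9 CPM in the young libraries (log2 change 0.79 ± 0.068, SE). Sirpb1a had 51.5 and 51.9 CPM in the aged against 32.4 and 31.9 CPM in the young libraries (0.69 ± 0.086). Both passed with each library left out, with edgeR adjusted p values of at most 0.00112 for Sirpb1c and 0.0141 for Sirpb1a. Sirpb1b, with 74.6 and 74.1 CPM in the aged against 64.1 and 62.6 CPM in the young libraries, did not pass (0.23 ± 0.074, edgeR adjusted p = 0.104). No stretch of 50 bases in the annotated Sirpa transcripts recurs in a transcript of another gene. Sharing of reads among the Sirpb1 genes was not measured. Ptpn6, the phosphatase SHP-1 that Sirpa recruits, had 710 and 724 CPM in the aged, against 574 and 587 CPM in the young libraries (0.30 ± 0.051). Fyb, an adaptor of the integrin pathway, rose by 0.34 ± 0.062. Neither Ptpn6 nor Fyb passed without young replicate 1 (edgeR adjusted p = 0.0764 and 0.0814), and Fyb also not without young replicate 2 (edgeR adjusted p = 0.0571). Of the 20 tested genes for inhibitory and evasion signals, 5 were higher and none lower, with a median of 0.069. Among all genes tested, 2.87% were higher and 2.89% lower.

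**Figure D4:**
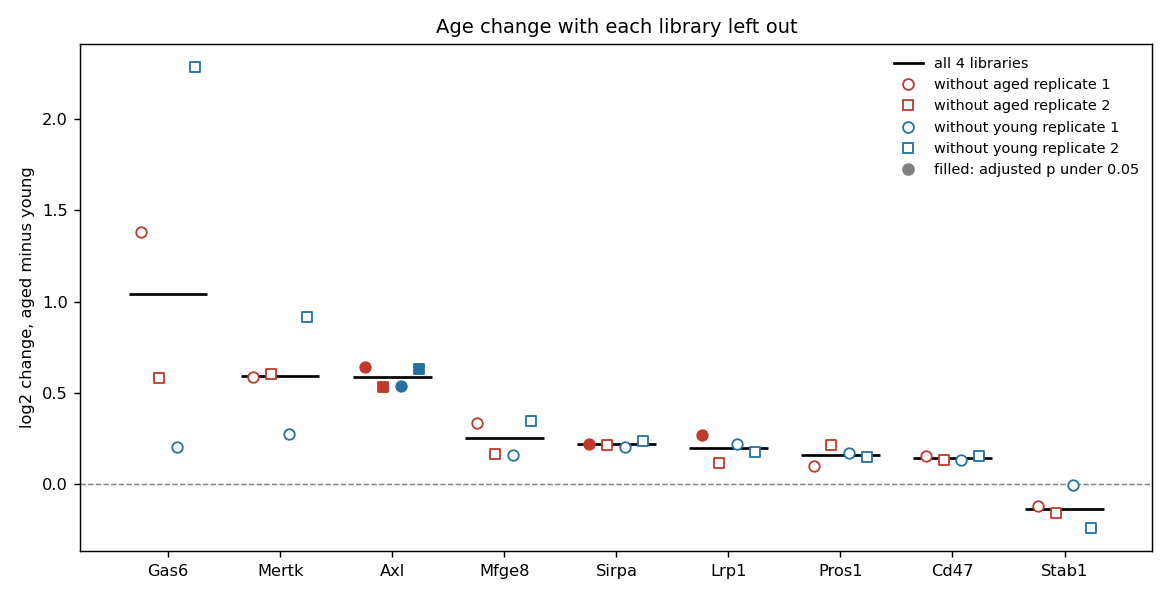
Log2 change, aged minus young, of the 9 tested genes with all 4 libraries (line) and with each library left out (points), filled where the edgeR adjusted p was below 0.05. All 4 Axl points are filled, at 0.53 to 0.64, against 1 of 4 each for Sirpa and Lrp1.

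Across the wider uptake pathway, 138 other genes were tested in 8 lists, of which 20 were higher and 4 lower in aged monocytes (edgeR adjusted p below 0.05). That is 17.4%, against 5.77% of all genes tested. The lists were chosen with earlier results of these data known and are no independent evidence. Of the 24 genes that passed, 10 still passed without young replicate 1, 14 without young replicate 2, 18 without aged replicate 2 and 24 without aged replicate 1. With each library left out in turn, 9 passed every time, among them Cd36, C1qb, Itgb5, Itgb3, Sirpb1a, Sirpb1c, Nr4a1 and Apoe.

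Receptors and bridging proteins for apoptotic cells moved in both directions, with 6 of 19 higher, 3 lower and a median of 0.12. Among all genes tested, 2.87% were higher and 2.89% lower. Cd36, a scavenger receptor that works with thrombospondin in uptake, had 33.7 and 33.8 CPM in the aged, against 9.06 and 9.63 CPM in the young libraries (log2 change 1.86 ± 0.11, SE). C1qb, a chain of the complement protein that coats apoptotic cells, had 30.2 and 30.1 CPM in the aged, against 10.6 and 10.8 CPM in the young libraries (1.5 ± 0.11). The other chains had smaller log2 changes, 0.73 ± 0.14 for C1qc and 0.41 ± 0.16 for C1qa. C1qa did not pass (edgeR adjusted p = 0.162), and differences between the chains were not tested. The integrin chain genes that pair with alpha-v, the receptor side of Mfge8, moved apart: Itgb5 rose by 0.69 ± 0.072, while Itgb3 fell by 0.68 on the log2 scale (SE 0.099). Anxa1, which bridges and calms phagocytes, rose by 0.34 ± 0.055 but did not pass without young replicate 1 (edgeR adjusted p = 0.0579). Among the genes that fell, Cd93 (-0.42 ± 0.074) did not pass without young replicate 1 or 2 (edgeR adjusted p = 0.0522 and 0.0531), and Thbs1 (-0.36 ± 0.077) passed only without aged replicate 1 among the libraries left out.

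Regulators of efferocytosis genes were higher in 6 of 17 cases and lower in none, with a median of 0.22, where 2.87% of all genes tested were higher. Nr4a1, a nuclear receptor on which non-classical monocytes depend, had 139 and 162 CPM in the aged, against 62.0 and 63.8 CPM in the young libraries (1.26 ± 0.083, SE). Pparg, a lipid-sensing nuclear receptor, rose by 0.93 ± 0.17 and Cebpb by 0.32 ± 0.070. Pparg did not pass without young replicate 1 (edgeR adjusted p = 0.0603), and Cebpb not without aged replicate 2 or young replicate 1 (edgeR adjusted p = 0.0904 and 0.185). The LXR genes, whose products can induce Mertk, did not pass: Nr1h2 gave 0.091 ± 0.079 and Nr1h3 0.54 ± 0.28 on the log2 scale (edgeR adjusted p = 0.558 and 0.292).

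In the other lists, the shares called are to be read against the 5.77% of all genes tested, and counts this small do not set a list apart from it. In the engulfment machinery, 1 of 25 genes was lower and none higher, with a median of 0.035. It was Trio, a guanine nucleotide exchange factor (-0.49 ± 0.093, SE), which did not pass without young replicate 1 or 2 (edgeR adjusted p = 0.0746 and 0.059). In TAM signalling, shedding and feedback, 1 of 20 genes was higher and none lower, with a median of 0.098. It was Socs3, a suppressor of cytokine signalling that TAM receptors can induce (0.66 ± 0.16), and among the libraries left out it passed only without aged replicate 1. None of 13 genes for find-me signals passed (edgeR, DESeq2, limma-voom) (median 0.19), with 2 higher and 1 lower at an unadjusted p below 0.05, and the lowest p was that of S1pr2 (0.30 ± 0.083, edgeR adjusted p = 0.0639). Of 17 tested partners and ligands of Lrp1, 2 were higher and none lower, with a median of 0.11. Apoe, an apolipoprotein that Lrp1 takes up, rose by 1.31 ± 0.054, and Plaur, the urokinase receptor gene, by 0.25 ± 0.062, of which Plaur passed only without aged replicate 1 among the libraries left out.

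**Figure D5:**
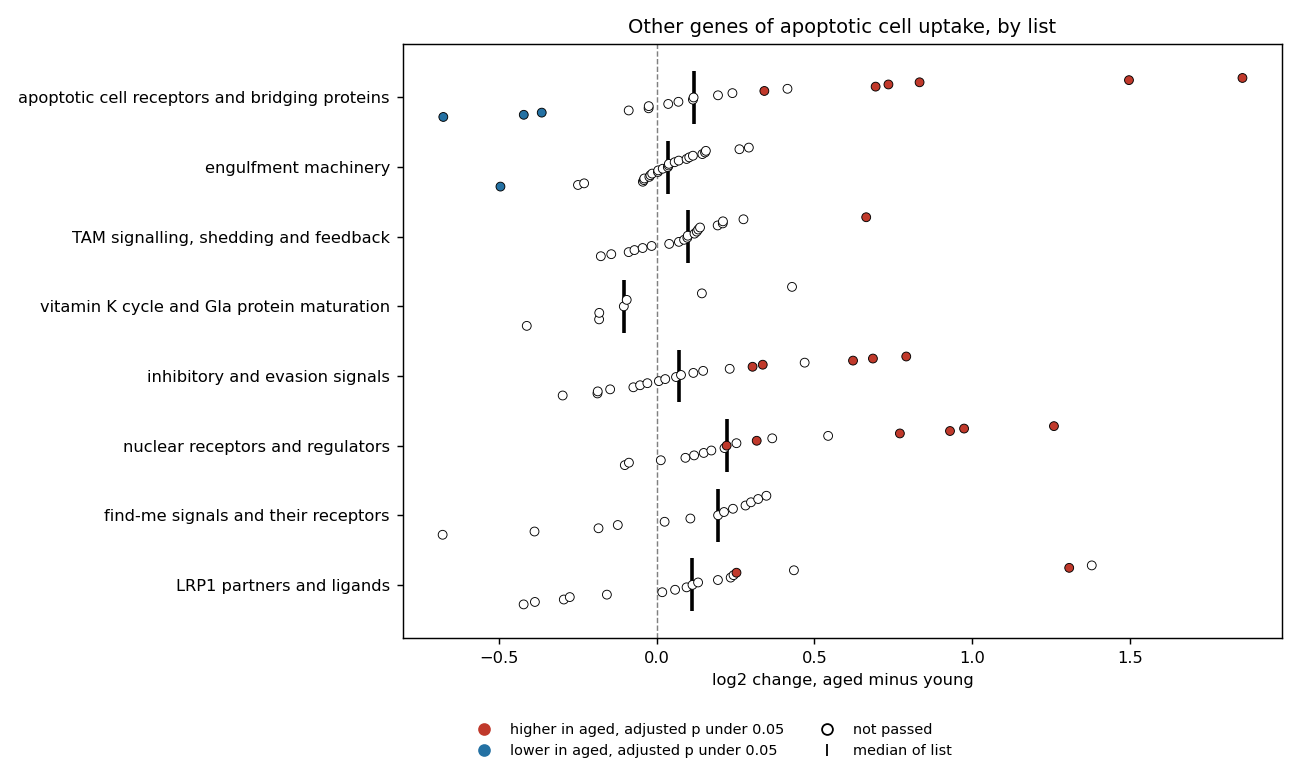
Log2 change, aged minus young, of each tested gene in 8 lists of the uptake pathway, with red for genes higher and blue for genes lower at an adjusted p below 0.05, open points for genes that did not pass, and a bar at each list's median. Calls gather in the receptor, inhibitory and regulator lists (9, 5 and 6 genes), and the find-me and vitamin K lists hold none.

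Axl, Mertk, Mfge8 and Stab1 are also made by resident macrophages and endothelium, so markers of those cells are set beside them. Their part in the values above was not tested. The counts below are to be read against all genes tested, of which 5.77% passed in either direction. An unadjusted p below 0.05 (edgeR) was reached by 21.1% of them. Marrow macrophage genes had summed levels of 613 to 628 CPM in aged and 624 to 642 CPM in young libraries, and 2 of 14 tested genes, C1qb and C1qc, were higher and no other passed with edgeR, while DESeq2 and limma-voom each called 1 lower. At an unadjusted p below 0.05, 4 of the 14 were higher and 2 lower, and the median log2 change was 0.12. C1qb and C1qc are also counted in the pathway lists. The most abundant genes of the list were Adgre1, with 192 and 184 CPM in aged against 196 and 193 CPM in young libraries, and Slc40a1, with 191 and 171 CPM in aged against 210 and 236 CPM in young libraries. The 4 genes left out by the filter, Timd4, Folr2, Marco and Vsig4, had 0 to 4 counts in every library. Endothelial and stromal genes summed to 18.7 to 18.9 CPM in aged and 19.7 to 21.5 CPM in young libraries. Of the 16 genes, 3 had 0 counts throughout. Most of the sum was Pecam1, with 14.2 and 14.4 CPM in aged against 16.9 and 18.4 CPM in young libraries (-0.30 ± 0.12, SE). Pecam1 is also in the non-classical monocyte and inhibitory lists, and the sum mainly follows this gene. None of the list's 4 tested genes passed (edgeR, DESeq2, limma-voom), and their median log2 change was 0.95. At an unadjusted p below 0.05 (edgeR), 2 were higher and 1, Pecam1, was lower. Platelet genes, of interest because platelets carry protein S, summed to 5.26 to 6.48 CPM in aged and 3.56 to 3.73 CPM in young libraries, and none of 4 tested genes passed (edgeR, DESeq2, limma-voom), with 2 higher at an unadjusted p below 0.05. Dendritic cell genes, a lineage in which Axl marks a subset, were higher in 4 of 16 cases and lower in none, with sums of 1100 to 1189 CPM in aged and 931 to 1038 CPM in young libraries. B cell genes were higher in 7 of 14 cases and lower in none, with sums of 1558 to 1574 CPM in aged and 1137 to 1145 CPM in young libraries. Neutrophil and precursor genes were higher in 2 and lower in 6 of 14. Their sums were far larger, at 34968 to 35655 CPM in aged and 35172 to 36584 CPM in young libraries. These sums hold genes that moved in opposite directions. The 2 higher genes were Ltf (0.82 ± 0.051, SE) and Ngp (0.67 ± 0.049). The 2 most abundant were S100a9 (-0.14 ± 0.050), which did not pass (edgeR adjusted p = 0.130), and S100a8 (-0.40 ± 0.054), 1 of the 6 lower. Erythroid genes were higher in 2 of 11. None of 11 tested T and NK cell genes passed (edgeR, DESeq2, limma-voom), with 1 higher and 1 lower at an unadjusted p below 0.05. Monocyte identity genes were higher in 6 and lower in 1 of 16. This list shares 4 genes with the pathway lists, and 2 of its higher genes are counted in both.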

How the data were processed

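RNA of sorted monocytes was purified with oligo-dT and made into strand-specific libraries, per the labels' protocols. The authors deposited whole-number read counts per gene symbol, with no normalization, 1 table per library. Cutadapt, STAR 2.5.3, HTSeq, DESeq2 and mm10 are named in the submitters' processing notes; which annotation and strand setting were used is not given in these sources.

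Genes were kept by filterByExpr (minimum count 10, minimum total 15), scaled by TMM and tested with edgeR 4.0.16 in R 4.3.3 (quasi-likelihood F-test, aged minus young, Benjamini-Hochberg over 12035 genes, threshold 0.05). SEs were derived from the F statistic and 95% intervals from the fit. DESeq2 1.42.0 and limma-voom (limma 3.58.1) were alternatives, beside other scalings, filters, offsets and left-out libraries. Floors of 3 counts cover counting error only. Exon lengths and gene coordinates came from GENCODE M21 (GRCm38), in which 30416 of 31017 symbols matched 1 gene. The script was tested on simulated data. Replicates of each age differed by more than sampling noise.

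All 10 genes were named, with up to 4 genes per direction of smallest p from each pathway list, or the smallest p where none passed, except 1 gene of the pathway lists that is not reported here. The rule also selects the 2 most abundant and up to 3 passing genes of each cell type list; these lists are given mainly by counts and sums, with few of those genes named. C1qa, Nr1h2, Nr1h3, Sirpb1b, Timd4, Folr2, Marco and Vsig4 were chosen after their values were seen. The genes and lists were chosen with earlier results of these data known.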

Additional observations from a re-analysis of the deposited data

How the results depend on the processing

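All 694 calls rest on 2 libraries per age, and depth limits Gas6, Mertk and Tyro3 most. Without a low-count filter 1399 genes and 38 pathway genes passed, and against a 1.2-fold change (glmTreat) 161 genes, 1 of the 10 genes (Axl) and 9 pathway genes. With each library left out, 197 to 1040 genes, 1 to 3 of the 10 genes and 10 to 29 pathway genes passed, the fewest genes without young replicate 1. With the replicate number as a block, 1817 genes, 3 of the 10 genes (Lrp1 in addition) and 41 pathway genes passed. The numbers are not shown to pair the libraries. Across 12035 genes, the difference of replicate 1 minus 2 in aged correlated with that in young at 0.0937. Scaling by RLE, upper quartile or library size alone called 699, 664 and 633 genes and DESeq2 683, each with 2 of the 10 genes. Axl passed under all 17 alternatives, Sirpa missed the threshold under 5 and Lrp1 passed under 4, and no tested gene of the 10 changed direction. The causes were not tested.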
